A study of Caenorhabditis elegans with 2 samples.

Results

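The microtubule genes of the touch receptor neurons and their tubulin relatives were followed in a map of MEC-3 binding made by chromatin immunoprecipitation and sequencing (ChIP-seq). The 10 genes, of 19973 protein-coding genes in all, were chosen by name. Of these, 5 are genes of the touch neuron cytoskeleton, namely mec-7, mec-12, mec-17, atat-2 and ptl-1, and 4 are broadly expressed tubulin genes, namely tba-1, tba-2, tbb-1 and tbb-2. The tenth, tbb-4, encodes a beta-tubulin known from ciliated sensory neurons and is given apart. A region of a deposited list was counted at a gene when its summit lay between 2000 bp upstream of the annotated 5′ end and the end of the gene.

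The series holds 1 group of 2 samples, labelled as biological replicates 1 and 2. Both are whole hermaphrodite late embryos of the Caenorhabditis elegans strain OP55, genotype unc-119(ed3) III; wgIs55, taken 4 h after synchronization by egg bleaching. The transgene makes MEC-3 with GFP and FLAG at its C terminus, and chromatin was precipitated with an antibody against GFP. Touch neurons are few among the cells of a whole embryo, and no control sample was analysed here.

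MEC-3 is a LIM homeodomain factor that, with the POU homeodomain factor UNC-86, keeps the touch neuron genes switched on. Touch neurons are known for unusually wide, heavily acetylated microtubules, which are built from the beta-tubulin MEC-7 and the alpha-tubulin MEC-12. MEC-17 and ATAT-2 acetylate alpha-tubulin, and PTL-1 is the worm's tau-like microtubule-binding protein. The tubulins TBA-1, TBA-2, TBB-1 and TBB-2 supply the microtubules of dividing embryonic cells.

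The deposited candidate lists reach down into background, so presence in a list is a weak statement about binding. The list from both alignments together, here the pooled list, had 27953 regions, whose lowest signal was 21.8, median 30.3 and highest 722. The replicate 1 list held 30000 regions (median signal 16.9) and the replicate 2 list 22464 (median signal 18.6). The final list, which the irreproducible discovery rate (IDR) derives from how well replicate rankings hold up, had 457 peaks with signals of at least 77.4. Signals are the authors' own values, on an unstated scale, so they are compared only within a list. Ranks are therefore given too, from the strongest region of each list, and as a percent of the list's length. The number of reads is unknown.

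The sequences before the 5′ ends of mec-7 and mec-17 are shown because these were the 2 genes of the 10 with AATGCAT close to the start. AATGCAT is the site type known to be bound by UNC-86 with MEC-3. They are read from the RefSeq copy of the assembly that ce11 names, on the minus strand, with AATGCAT or its reverse complement in capitals. The mec-7 bases lie at chrX:7776690-7776839 and the mec-17 bases at chrIV:7987184-7987333.
mec-7: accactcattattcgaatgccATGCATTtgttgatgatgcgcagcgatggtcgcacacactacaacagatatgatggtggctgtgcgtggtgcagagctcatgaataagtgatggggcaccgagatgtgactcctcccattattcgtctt
mec-17: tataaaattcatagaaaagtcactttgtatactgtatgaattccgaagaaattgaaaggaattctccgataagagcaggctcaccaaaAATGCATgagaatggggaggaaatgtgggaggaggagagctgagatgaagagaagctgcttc

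In mec-7 the site began at -129 bp from the 5′ end, and in mec-17 at -62 bp. From 250 bp before to 50 bp after the 5′ end, AATGCAT on either strand occurred in 2 of the 10 genes, and in 4.52% of all 19973 protein-coding genes. Both genes belong to the 5 touch neuron genes, and none of the 4 broadly expressed tubulins had the site there. Within 2000 bp upstream the site was present in 5 of the 10 genes, among them 4 of the 5 touch neuron genes (all but ptl-1) and tbb-1, against 26.2% of all genes. The homeodomain core TAATTA and the POU octamer ATGCAAAT occurred in 0 of the 10 near the 5′ end, against 15.5% and 2.86% of all genes. Within 2000 bp upstream they occurred in 8 and 2 of the 10, against 64.6% and 17% of all genes. GAGAGA occurred in 6 of the 10 near the 5′ end, against 21.8%, and in 9 within 2000 bp upstream, against 66.6%. A match describes letters and not a bound site.

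All 10 genes had at least 1 pooled candidate region, and none had a final peak. A pooled region lay in the window of 66.8% of all protein-coding genes, and a final peak in that of 2.81%. The share rose with the size of the window, from 61.7% for windows over 3.5 and up to 4.5 kb, which hold 6 of the 10 genes, through 72.8% for those up to 6 kb, which hold 2, to 84.2% for those up to 10 kb, which hold 2. There were 2 or more pooled regions at 7 of the 10 genes, against 38.9% of all genes. In the replicate 1 list 10 genes had a region (70.0% of all genes), and in the replicate 2 list 9 did (60.9% of all genes), with atat-2 the exception. The nearest final peak was between 16826 bp from the 5′ end, at tbb-1, and 551904 bp, at mec-7. Most of these regions lay well below the lowest signal seen in the final list. The 27 pooled regions at the 10 genes ranged in signal from 22.4 to 68.6, and their median of 30.9 was close to that of the whole list. Their −log10 q-values ran from 0.0197 to 1.65, while the lowest in the final list was 1.84.

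**Figure D1:**
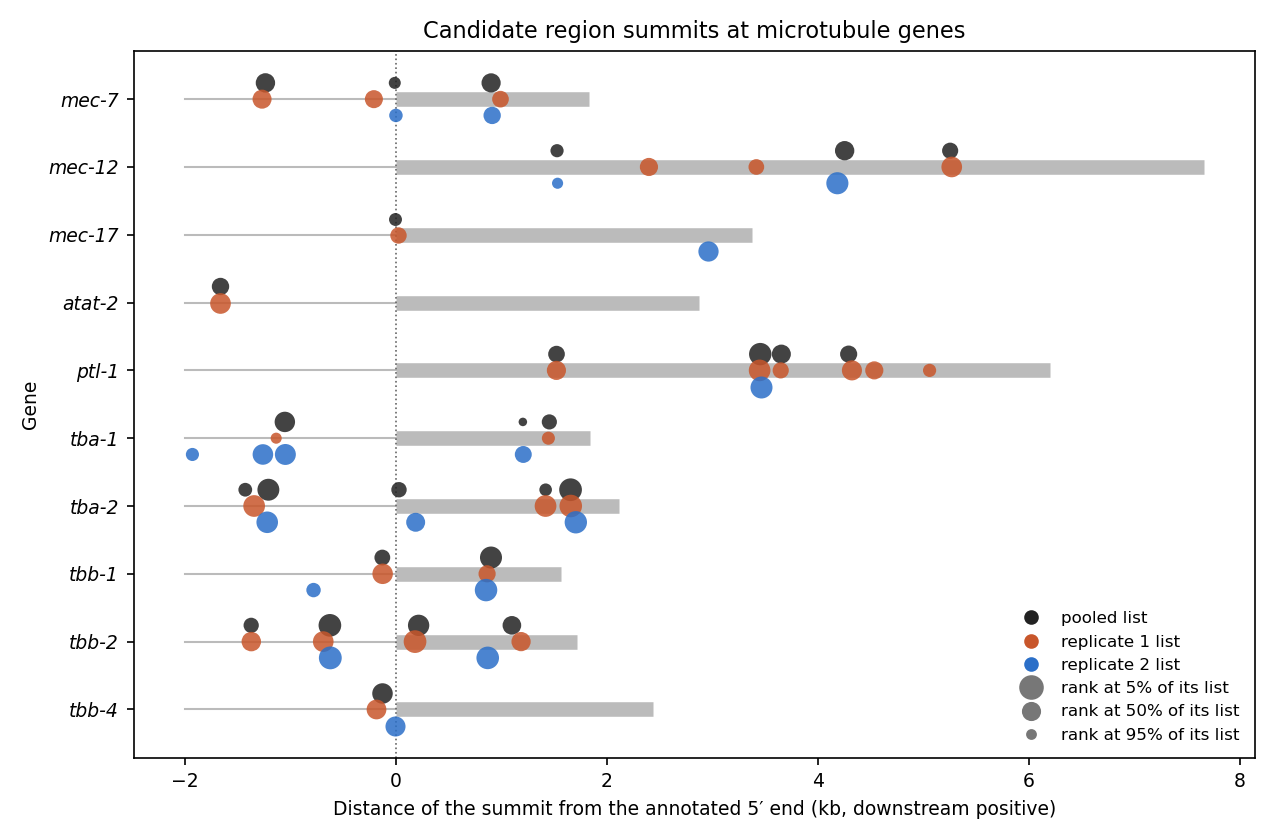
Summits of candidate regions along each gene, with distance from the annotated 5′ end in kb on the x axis and the 10 genes on the y axis. Grey bars are gene bodies, thin lines the 2000 bp upstream, colours the 3 lists, and a larger point a stronger rank within its list. At mec-12 and ptl-1 every pooled summit of the window lies inside the gene, and summits of both replicates coincide at few places, such as 3.5 kb into ptl-1.

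mec-7 encodes the beta-tubulin of touch neuron microtubules and lies at X:7774856-7776689 on the minus strand. Its 3 pooled regions had signals of 35.4, 34.8 and 24.4, with summits at -1233, 906 and -7 bp from the 5′ end. The region at the 5′ end, X:7776474-7776917, contains the AATGCAT site shown above and was the weakest of the 3, at rank 22560 (80.7% of the list). Replicate 2 had a summit 11 bp from it with signal 16.1 (rank 16350), and replicate 1 its nearest upstream summit at -205 bp with signal 18 (rank 12812). That replicate 1 region, X:7776669-7777118, overlaps the pooled region and contains the same site, and another AATGCAT at -295 bp. The region inside the coding sequence at 906 bp was matched in both replicates within 100 bp, with signals of 16.6 and 18.8, ranks near the middle of each list. The region at -1233 bp had its summit inside the neighbouring gene ZK154.4 and was matched in replicate 1 alone.

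mec-17, an alpha-tubulin acetyltransferase gene at IV:7983802-7987183 on the minus strand, had a single pooled region, IV:7986970-7987413, with its summit at -9 bp. This region too contains the AATGCAT site of its gene. Its signal was 25.2 (rank 21200, 75.8% of the list), the weakest best region of the 10 genes. Replicate 1 had a summit 34 bp away with signal 16.3 (rank 16356). Replicate 2 had none there, and its only region at mec-17 lay at 2962 bp, in coding sequence, with signal 23 (rank 5649). That region lay nearer to the 5′ end of arf-5, at 1695 bp. So the pooled regions of mec-7 and mec-17 at the 5′ end both had low ranks. Each had a summit within 100 bp in 1 replicate, a different one for each gene. Elsewhere within 2000 bp upstream, AATGCAT lay in no pooled region, at mec-7 (-295 bp), mec-12 (-1292 bp), atat-2 (-1054 bp) and tbb-1 (-671 bp). How often a site lies in a region over all genes was not taken. A pooled region 426 bp beyond the 3′ end of mec-17, just outside the window, had signal 59.6 (rank 1398).

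mec-12, the alpha-tubulin gene of touch neurons at III:3131574-3139234 on the minus strand, had no pooled region upstream. Its 3 pooled regions lay in coding exons, at 4257 bp (signal 35.3, rank 9082), 5257 bp (signal 28.8) and 1531 bp (signal 25.4). The one at 5257 bp lay nearer to the 5′ end of Y53G8B.1, at 4700 bp. Replicate 1 matched the second, with signal 22.6, and replicate 2 the other pair, with signals 30.3 (rank 1910) and 15.1. None of the 3 was matched in both replicates. A further pooled summit lay 1 bp beyond the 3′ end of mec-12 with signal 27.8.

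atat-2, the other acetyltransferase gene, at X:5849100-5851971 on the plus strand, had 1 pooled region at -1667 bp with signal 30.9 (rank 13307). Replicate 1 had the same summit with signal 22.6 (rank 6450), and replicate 2 had no region in the window.

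ptl-1, the tau-like gene at III:765184-771391 on the plus strand, had the strongest region of the touch neuron genes. It covered III:768419-768862 with its summit in a coding exon at 3457 bp, and its pooled signal was 57.5 (rank 1645, 5.88% of the list). Both replicates had a summit within 6 bp of it, with signals of 26.1 in replicate 1 (rank 3845) and 29.6 in replicate 2 (rank 2123). The 3 other pooled regions, with signals of 34.5, 30.4 and 29.6, were matched in replicate 1 alone. Just outside the window, pooled summits lay at -2475 bp with signal 36.5 (rank 8262) and at 6400 bp with signal 27.6. The 101 bases around the strong summit, at chrIII:768591-768691 on the plus strand, are shown because they hold a tandem coding repeat. The capitals mark 3 copies of its 12-base unit.
ptl-1: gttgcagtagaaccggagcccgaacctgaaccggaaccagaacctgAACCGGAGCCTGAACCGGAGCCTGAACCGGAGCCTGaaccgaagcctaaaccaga
In the 201 bases around that summit 4.65% of the 30-mers occurred more than once in the genome, and 0% had a copy outside those bases. The nearest 5′ end to the strong summit was that of tpst-2, at 2617 bp, and the same gene was nearest to the regions with signals of 34.5 and 30.4.

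Among the broadly expressed tubulins, tba-2 and tbb-2 had the strongest regions of the 10 genes. tba-2 encodes an alpha-tubulin of the early embryo and lies at I:12964674-12966795 on the minus strand. Its region in coding sequence at 1659 bp, I:12964914-12965357, had a pooled signal of 68.6 (rank 781, 2.79% of the list). Replicate 1 had a summit 2 bp away with signal 33.7 (rank 1312) and replicate 2 one 50 bp away with signal 32.8 (rank 1396). Of the 6 regions matched in both replicates, it alone ranked in the top 10% of both lists. The region is closer to the 5′ end of C47B2.2 (557 bp) than to that of tba-2. Of the 30-mers around its summit, 10.5% occurred elsewhere in the genome, and some are shared with the alpha-tubulin genes tba-1 and tba-4.

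The other 4 pooled regions of tba-2 had signals of 49.6, 27.8, 26 and 24.9. Those of 49.6 and 26 lay inside pbs-2, a proteasome subunit gene, at 280 and 61 bp from its 5′ end. The region at 33 bp, in the untranslated exon of tba-2 (signal 27.8), had no summit of either replicate within 100 bp. A further pooled summit at 2368 bp, beyond the 3′ end of tba-2, had signal 27.9.

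tba-1, the second embryonic alpha-tubulin gene, at I:9785781-9787624 on the minus strand, had 3 pooled regions, and the nearest 5′ end was that of another gene for all 3. The strongest, at -1049 bp with signal 39.2 (rank 6569), lay 52 bp from the 5′ end of cox-5B, which encodes a subunit of cytochrome c oxidase. Replicate 1 had it at signal 13.1 (rank 25557) and replicate 2 at 24.8 (rank 4244). The others, in coding sequence at 1458 and 1207 bp with signals of 27.5 and 22.4, lay 442 and 693 bp from the 5′ end of drsh-1.

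tbb-1, an embryonic beta-tubulin gene at III:10740868-10742432 on the minus strand, had a region in coding sequence at 905 bp with signal 51.1 (rank 2600). The replicates differed there, with signal 17 in replicate 1 (rank 14746) and 34.2 in replicate 2 (rank 1154). The nearest 5′ end, at 755 bp, was that of K01G5.8. The region at -125 bp had signal 28.3 and was matched in replicate 1 alone, with signal 22.2.

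tbb-2 encodes a beta-tubulin of the embryonic spindle and lies at III:4015910-4017627 on the minus strand. Its strongest pooled region, III:4018027-4018470, had its summit at -622 bp, a signal of 65.9 (rank 934) and tbb-2 as the nearest 5′ end. Replicate 2 had a summit 4 bp away with signal 45.2 (rank 369), and replicate 1 one 63 bp away with signal 22.6 (rank 6475). It is the only region of the 10 genes among the 457 strongest of a replicate list. Such a region of replicate 2 lay in the windows of 3.07% of all genes, and one of replicate 1 in 2.79%. The 101 bases around the pooled summit, at chrIII:4018199-4018299 on the minus strand, are shown as the strongest upstream region of the 10 genes, and they hold none of the 4 motifs.
tbb-2: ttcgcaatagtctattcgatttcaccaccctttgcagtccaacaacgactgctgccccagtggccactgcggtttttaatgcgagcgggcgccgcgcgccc
The second region of tbb-2, in an intron at 219 bp, had signal 44.4, and the 101 bases around its summit hold TAATTA. Replicate 1 had this region at signal 36.5 (rank 891), and replicate 2 had no summit within 100 bp. The remaining pair, at 1103 and -1368 bp, had signals of 33.4 and 27.7 and were matched in replicate 1 alone. The one at -1368 bp lay nearer to the 5′ end of snpc-3.4, at 1042 bp.

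tbb-4, the beta-tubulin gene of ciliated neurons at X:9434452-9436893 on the minus strand, had 1 pooled region, at -132 bp, with signal 39.6 (rank 6368). Replicate 1 had a summit 55 bp away with signal 20.6 (rank 8757), and replicate 2 had its summit at -6 bp with signal 22.6 (rank 5989). The sequences just before the 5′ ends of tbb-1 (chrIII:10742433-10742472), tbb-2 (chrIII:4017628-4017667) and tbb-4 (chrX:9436894-9436933) are shown, on the minus strand, because all 3 end in TTTCAG, in capitals, the form of a worm splice acceptor.
tbb-1: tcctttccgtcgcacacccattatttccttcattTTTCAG
tbb-2: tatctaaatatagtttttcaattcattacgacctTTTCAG
tbb-4: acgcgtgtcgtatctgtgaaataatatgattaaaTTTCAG
In worms many messages receive a leader by trans-splicing, and the annotated 5′ end of such a gene is a splice site rather than the start of transcription. TTTCAG preceded the 5′ end in 12.3% of all genes and in 3 of the 10. Distances from these 5′ ends are distances from the annotated point alone.

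**Figure D2:**
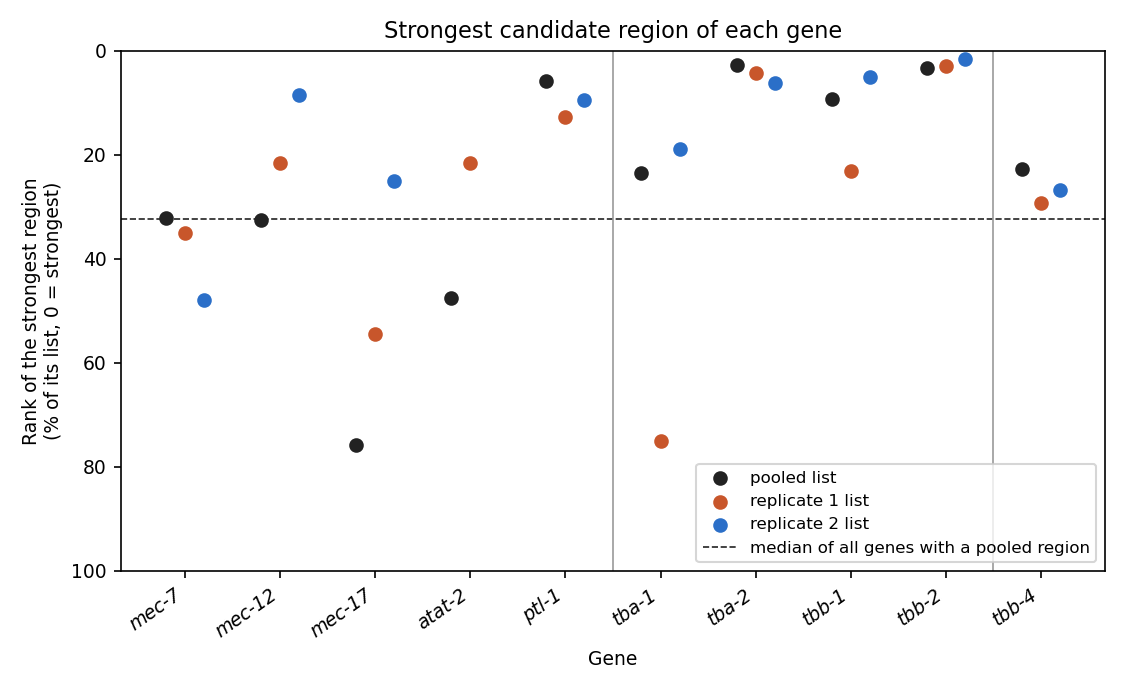
Rank of the strongest region of each gene, as a percent of its list with the strongest at the top, for the pooled list and for each replicate. Vertical lines separate the touch neuron genes, the broadly expressed tubulins and tbb-4, and the dashed line is the median of all genes with a pooled region, 32.4%. The tbb-2 and tba-2 points lie in the top 10% of all 3 lists, while those of mec-7 all lie near or below the dashed line.

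Side by side, the broadly expressed tubulins had more pooled regions per kb and higher-ranked strongest regions than the touch neuron genes. The 5 touch neuron genes held 12 pooled regions in 32 kb of window (0.376 per kb) and the 4 broadly expressed tubulins 14 in 15.2 kb (0.918 per kb), against 0.302 per kb over the windows of all genes. In number alone the order varied: the touch neuron genes held 14 regions and the broadly expressed tubulins 11 in replicate 1, and 6 and 11 in replicate 2. In the upper 50% of the pooled list each group held 7. The median signal of the pooled regions was alike, 30.6 at the touch neuron genes and 30.9 at the broadly expressed tubulins. The rank of a strongest region depends also on how many regions a gene holds. The median rank of the strongest region was at 32.5% of the list for the touch neuron genes and at 6.32% for the broadly expressed tubulins. Over all 10 genes it was at 23.1%, and over all genes with a region at 32.4%. A pooled region in the top 10% of the list lay at 1 of the 5 touch neuron genes (ptl-1) and at 3 of the 4 broadly expressed tubulins, against 13.7% of all genes. In the top 5% there were 0 of 5 and 2 of 4, against 7.59%. The medians differed in the same direction in each replicate. They were 21.6% against 13.7% in replicate 1 and, without atat-2, which had no region there, 17.3% against 5.67% in replicate 2. Genes are not replicates of a condition, so this difference was not tested.

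In the pooled list, the difference of the median ranks turned when regions nearer to another gene's 5′ end were left out. Regions per kb stayed higher at the broadly expressed tubulins, by 0.0776. For 9 of the 14 regions of the broadly expressed tubulins and 4 of the 12 of the touch neuron genes the nearest 5′ end was that of a neighbour. These are 13 of 27 (48.1%), against 35.5% of the pairs of a gene and a region over all genes. Without them tba-1 had no region and the strongest region of ptl-1 was dropped too. A region in the top 10% then lay at 0 of the 5 touch neuron genes and at 1 of the 4 broadly expressed tubulins (tbb-2). The touch minus broad difference of the medians went from 26.2 to -11.1 percentage points, with 5 genes (47.6%) against 3 (58.7%). These medians were not taken in the replicate lists. Replicate 1 kept strongest ranks of 21.5% to 54.5% at the touch neuron genes, against 23.1% at tbb-1 and 2.97% at tbb-2. Replicate 2 kept 47.9% at mec-7 and 8.5% at mec-12, against 35.7% at tba-2 and 1.64% at tbb-2. GC content moved with the groups as well: around the summits it had a median of 51.7% at the broadly expressed tubulins, 48.5% at the touch neuron genes and 42.3% over the whole pooled list. Its part in the ranks was not tested.

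Coding exons held the largest number of the regions. Of the 27 pooled summits, 12 (44.4%) lay in a coding exon of the gene, 11 upstream, 3 in an intron and 1 in an untranslated exon. Over all genes the summit lay in a coding exon of the gene in 30.4% of the pairs of a gene and a region in its window. The touch neuron genes and the broadly expressed tubulins each had 6 coding regions, among them the strongest region of mec-12, ptl-1, tba-2 and tbb-1. From 1000 bp upstream to 500 bp downstream of the 5′ end, 6 of the 10 genes had a pooled region, mec-7, mec-17, tba-2, tbb-1, tbb-2 and tbb-4, against 37.5% of all genes.

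Tubulin coding sequences are alike, so reads from one gene could be placed at another. At 30 bases those of the tubulins among the 10 genes were largely distinct. tba-1 and tba-2 share 15 30-mers (1.13% of those of tba-1), and mec-7 and tbb-2 share 24 (1.85% of those of mec-7). mec-7 and tbb-1 share 3, and mec-12 shares none with tba-1 or tba-2. The coding sequence of tba-4 was not compared in this way, although 30-mers around both pooled coding summits of tba-2 are shared with tba-4. Around the 27 summits, 4 regions (at mec-7, tba-1 and, for 2 of them, tba-2) shared a 30-mer with another tubulin gene. None had over 50% of its 30-mers repeated in the genome, against 1.79% of all pooled regions, and the highest share among the 27 was 10.5%. A replicate 2 region of tbb-2, in coding sequence at 874 bp with signal 36.1 (rank 906), is outside these 27. Around its summit 15.7% of the 30-mers were repeated in the genome, and some are shared with mec-7. The read length is unknown.

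**Figure D3:**
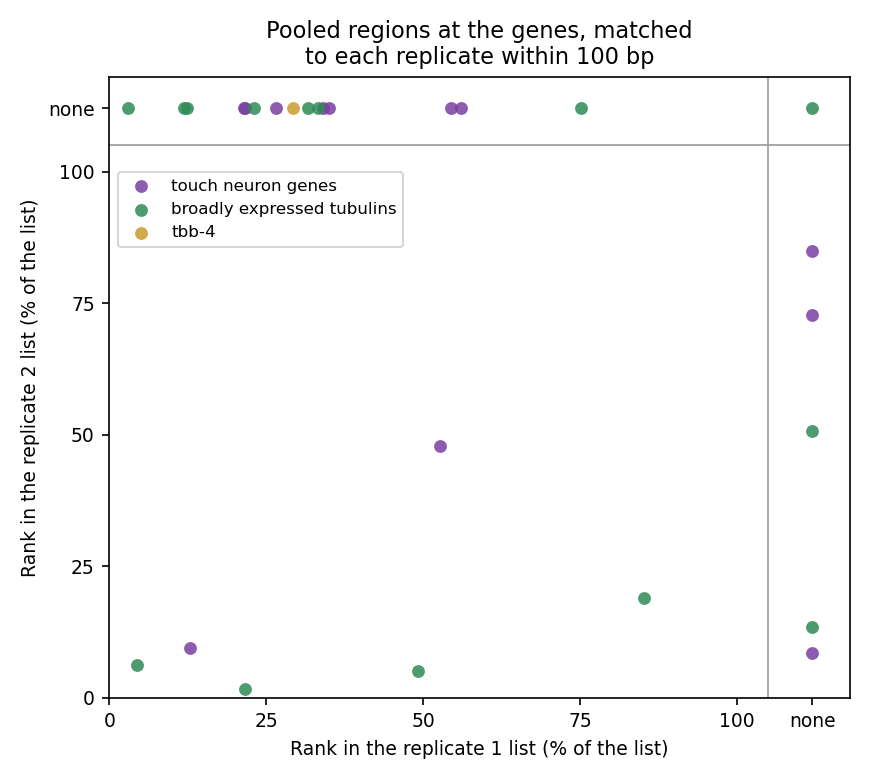
Rank of each of the 27 pooled regions in the replicate 1 list (x axis) and the replicate 2 list (y axis), as a percent of each list, after matching summits within 100 bp. Points beyond the grey lines had no match in that replicate. Of the 6 points inside the lines, 4 belong to the broadly expressed tubulins and 2 to touch neuron genes, and most other points lie along the top, matched in replicate 1 alone.

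Few of the regions were found in both replicates when summits had to lie within 100 bp. Of the 27 pooled regions, 6 (22.2%) had a summit within 100 bp in both replicate lists, against 25.6% of all pooled regions, so the share at these genes was near that of the list. Another 15 were matched in replicate 1 alone (34.0% of all pooled regions were), 5 in replicate 2 alone (25.2%) and 1 in neither (15.2%). The 6 are the coding regions of mec-7, ptl-1, tba-2 and tbb-1 and the upstream regions of tba-1 and tbb-2. Only those of tba-2 and ptl-1 ranked in the upper 15% of both lists, at 4.37% and 6.21% for tba-2 and 12.8% and 9.45% for ptl-1. With summits within 250 bp the number in both replicates was 14, and by overlap of regions it was 15. The share over all pooled regions was not taken for these looser rules.

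Among the other microtubule genes, 5 had a final peak. Of 37 genes listed, 36 were matched by symbol (hdac-6 was not). A pooled region lay at 28 of the 36 (77.8%), and a final peak at 5 (13.9%), against the 66.8% and 2.81% of all genes given above. Windows reach 31301 bp in this list, and longer windows hold more regions. The highest signal was at spd-5, which encodes the scaffold of the centrosome, with signal 158 (rank 38, and ranks 43 and 33 in replicates 1 and 2) at 253 bp. ttll-4, a tubulin polyglutamylase gene, had rank 101 in the pooled list, and ranks 91 and 143 in the replicates, at -387 bp. unc-104, a kinesin gene of synaptic vesicle transport, had signal 81 (rank 373) at 6584 bp, and unc-33, a gene of axonal microtubule organisation, 79.1 (rank 409) at 6489 bp.

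Of the 8 further tubulin genes, 5 had a pooled region and 1 a final peak. The latter was tba-7, an alpha-tubulin gene, with 6 pooled regions and a highest signal of 80.4 at 322 bp (rank 384, and ranks 769 and 826 in replicates 1 and 2). The gamma-tubulin gene tbg-1, of microtubule nucleation, had signal 34.8, and the alpha-tubulin genes tba-4, tba-9 and tba-6 had 34.3, 33 and 25.8. The genes tba-5, tba-8 and tbb-6 had no pooled region. Among the tubulin genes named here, then, tba-7 exceeded 77.4, the lowest signal seen in the final list, and tba-2 and tbb-2 came nearest below it. ben-1, another beta-tubulin gene, was not analysed here.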

How the data were processed

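ChIP-seq regions of 1 group of 2 biological replicates were analysed on ce11. Sonication fragmented the chromatin, per the labels. Per the deposited file list, candidate regions were called by the authors on each replicate alignment and on both together, with a control alignment, and the final list was made from these by IDR. No source used here names the aligner, the caller or the IDR threshold. The deposited signal of each region and its deposited −log10 q-value were used as given. The ce10 lists were not used here.

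Gene models were those of Ensembl release 115 for WBcel235 (ce11), and sequence came from its RefSeq copy. Of all regions used, 0 ended beyond a chromosome. GC content and 30-mers repeated in the genome were taken within 100 bp of a summit. The 4 motifs were searched on both strands. A coding exon is one of the gene itself. Python 3.11.15, numpy 2.4.6 and pandas 2.3.3 were used, and the steps were tested on simulated regions. Shares over all 19973 protein-coding genes stand in for tests, and no test was made over the chosen genes, with 1 group and no control sample.

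The 10 genes and the list of other microtubule genes were chosen with earlier results of these data known. Named are all 10 genes, each further tubulin, the 4 other genes of highest rank, and neighbours with the nearest 5′ end. With 1 condition, no gene of like pattern was sought.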

Additional observations from a re-analysis of the deposited data

How the results depend on the processing

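With 1 group, 2 replicates and unknown depth, weak regions cannot be told from background. No paired analysis was possible because the series has 1 group. The count of genes with a final peak stayed 0 in every window, and was 0 and 1 (tbb-2) with the top regions of a single replicate. The touch minus broad difference of median ranks, 26.2 percentage points, was 21.5 with 5000 bp upstream. It was 22.7 without regions that share a 30-mer with another tubulin. From 1000 bp upstream to 500 bp downstream it was 19.6. There only mec-7 and mec-17 stood against tba-2, tbb-1 and tbb-2, as the other genes of both groups had no region. With single replicates the difference was 7.83 to 11.6. In the pooled list it reversed, to -11.1, when regions nearest to another 5′ end were left out. The replicate medians were not taken in this way. The excess of regions per kb of the broadly expressed tubulins, 0.543, was 0.256 with 5000 bp upstream, 0.24 in the upper 50% of the list, 0.0776 without regions nearest to another 5′ end, and 0.283 to 0.534 with single replicates. The median best rank of the 10 genes, 23.1%, was 11.8% with 5000 bp upstream, 60% near the 5′ end, 47.6% without regions nearest to another 5′ end and 9.45% to 22.4% with single replicates. Over all genes with a region this median was 32.4% in the pooled list, 32.3% in replicate 1 and 34.6% in replicate 2. Those values are for the main window, and none was taken for the other windows or with regions left out. The 27 regions fell to 7, with 6 genes, near the 5′ end, to 15 in the upper 50% of the list and to 14 without regions nearest to another 5′ end. Regions in both replicates numbered 3 within 50 bp, 14 within 250 bp and 15 by overlap, against 6. Leaving out regions by nearest 5′ end or shared 30-mers was chosen after seeing the data. The causes were not tested.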
